A study of Homo sapiens with 18 samples.

Results

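Small nucleolar RNAs (snoRNAs) were examined in the human cell line HCT116, which was established from a colorectal carcinoma. The snoRNAs were selected on the deposited gene type and on a sum of at least 180 raw counts over the 18 libraries, which 54 of the 313 snoRNA genes in the table reached. Of these, 30 carry SNORD names (box C/D class), 23 carry SNORA names (box H/ACA class) and 1 is SCARNA12. The genes closest to the limit were SNORD45C, SNORD58C and SNORA44 inside it, with 183, 196 and 197 counts, and SNORA24, SNORD101 and SNORA62 outside it, with 177, 175 and 167 counts. These sums were used to choose the genes and are given as a description.

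All cells were HCT116 with a stable lentiviral construct under puromycin selection, which carried the long noncoding RNA CRLM1 (CRLM1), its antisense sequence (Antisense) or no insert (Ctrl). Each background then received an HNRNPK overexpression construct (hnRNPK) or its negative control (NC). This gave the 6 groups Ctrl_NC, CRLM1_NC, Antisense_NC, Ctrl_hnRNPK, CRLM1_hnRNPK and Antisense_hnRNPK, with 3 biological replicates each. Whether the stable lines were single clones is not given in the sources used here, so a difference between backgrounds and a difference between lines cannot be told apart.

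snoRNAs are short nuclear RNAs, most of which are cut out of the introns of host genes after splicing. Box C/D snoRNAs guide ribose methylation and box H/ACA snoRNAs guide pseudouridylation, mainly of ribosomal RNA. A few, such as U14 (the SNORD14 family), U22 (SNORD22) and U17 (SNORA73), are also needed to cut the precursor of ribosomal RNA. Their host genes often encode ribosomal proteins, translation factors or nucleolar proteins, and some hosts are noncoding (the SNHG genes).

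The sequences of the 3 HSPA8-hosted SNORD14 genes are shown because they carried the largest differences reported here, and those of 2 TAF1D-hosted genes because neither was called different in any comparison of 2 groups with all libraries. All were read on the gene's own strand, 5′ to 3′, from GRCh38 by the Gencode version 44 coordinates, and all 5 lie on the minus strand. Capitals mark box C (ATGATGA or GTGATGA, ending within the first 25 bases) and box D (CTGA, starting within the last 25 bases) in the SNORD genes, and an H box (ANANNA, the first that starts between 40% and 60% of the length) and ACA (starting within the last 8 bases) in the SNORA genes.
SNORD14C, chr11:123059335-123059422: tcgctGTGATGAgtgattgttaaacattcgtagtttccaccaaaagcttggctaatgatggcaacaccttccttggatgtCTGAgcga
SNORD14D, chr11:123058909-123058995: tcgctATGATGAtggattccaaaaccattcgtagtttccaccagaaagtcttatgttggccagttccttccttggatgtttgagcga
SNORD14E, chr11:123058077-123058161: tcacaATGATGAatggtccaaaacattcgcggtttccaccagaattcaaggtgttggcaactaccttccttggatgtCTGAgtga
SNORD5, chr11:93733228-93733300: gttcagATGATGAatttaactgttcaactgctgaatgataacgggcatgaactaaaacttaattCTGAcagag
SNORA8, chr11:93732361-93732499: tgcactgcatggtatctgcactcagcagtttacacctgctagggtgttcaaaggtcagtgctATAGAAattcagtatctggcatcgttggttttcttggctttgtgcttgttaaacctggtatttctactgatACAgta

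SNORD14C and SNORD14D were 78.5% identical, SNORD14D and SNORD14E 78.9%, and SNORD14C and SNORD14E 75.3%. With SNORD14B, which lies in RPS13, they shared the runs ccttccttggatgt and gtttccacca. By the letter rules, 19 of the 30 SNORD genes held boxes C and D, and none of the 23 SNORA genes did. Boxes H and ACA were found in 16 of the 23 SNORA genes, in none of the SNORD genes and in SCARNA12. A missing match, as for box D in SNORD14D, says only that these letters are not in the window.

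All 54 snoRNAs lay within an annotated gene on the same strand, and 32 host genes held them. For 8 of the 54 more than 1 such gene spans the locus, so their host assignment is uncertain. Ribosomal protein genes held 22 snoRNAs (16 hosts) and noncoding hosts held 9 (5 hosts). TAF1D, a subunit of the factor that recruits RNA polymerase I, held 7, EIF4A2, an RNA helicase of translation initiation, held 4, and HSPA8, a constitutive chaperone, held 3. SNORD genes were 64 to 237 bases long (median 84) and SNORA genes 121 to 204 bases (median 133). The reads were 151 nt long and 50 of the 54 snoRNAs are shorter than that, and 46 overlap an exon of at least 1 transcript of the host. Reads of a finished snoRNA and reads of unspliced or retained host sequence running through it could therefore not be told apart in these counts. For SNORD73A, SNORA57, SNORA72, SNORD58A and SNORD58C a gene lies on the opposite strand, and because the strand setting of the counting is not given in the sources used here, their values are uncertain.

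Total counts per library ranged from 19732681 to 27039520, and the 54 snoRNAs took 0.0036% to 0.0153% of them. Precision was therefore limited by the counts of single snoRNAs: the mean count was at least 10 for 53 of the 54 in Ctrl_NC, for 50 in CRLM1_NC and for 28 in Antisense_NC. In Ctrl_hnRNPK, CRLM1_hnRNPK and Antisense_hnRNPK it was at least 10 for 54, 53 and 22. HNRNPK ranged from 424 to 479.7 CPM (counts scaled to equal library size, by TMM over all libraries) in the NC libraries and from 491 to 713 in the hnRNPK libraries. The CRLM1 gene (RP4-710M16.2) had 0 counts in all Ctrl libraries, 579.9 to 659 CPM in the CRLM1 libraries and 39.1 to 50.01 in the Antisense libraries. The epithelial markers EPCAM, CDH1, KRT8, KRT18 and KRT19 were high throughout, at a summed 3489 to 9276 CPM, while the highest CPM of PTPRC, LYZ, COL1A2, DCN, PECAM1, VWF and CDH5 was below 0.5 in every library, CD3E was not listed and COL1A1 measured 11.2 to 32.8 CPM. Ctrl_hnRNPK replicate 3 and CRLM1_hnRNPK replicate 3 stood apart: across 12959 genes, their log2 CPM correlated at 0.991 to 0.992 and 0.985 to 0.986 with the NC libraries of their background, and at 0.952 to 0.959 and 0.945 to 0.951 with their own replicates. The study left both out of its comparisons, and hnRNPK results are given here with and without them.

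Per length, 2 sets of snoRNAs led the table. By the authors' FPKM, averaged over all 18 libraries, the 10 highest were SNORA8, SNORA18, SNORD14E, SNORD14D, SNORD14C, SNORA40, SNORA70, SNORD73A, SNORD5 and 1 of 2 SNORA63 genes (ENSG00000200320.1). Of these, 4 lie in TAF1D and 3 in HSPA8. In Ctrl_NC the FPKM was 71.8 ± 6.95 for SNORD14E, 49.8 ± 7.23 for SNORA8 and 45.9 ± 3.48 for SNORD14D (SD, n = 3). In Antisense_NC SNORA8 was highest at 64.2 ± 5.49, followed by SNORA18 at 54.9 ± 3.82, and SNORD14E measured 0.80 ± 0.795. SNORA70, in RPL10, measured 33.3 ± 3.79 in Ctrl_NC and 14.3 ± 2.12 in Antisense_NC. The median of the 18-library mean over all 54 was 7.76, so the leading genes stood well above the rest of the set.

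The summed level separated the backgrounds. The 30 SNORD genes summed to 53.7, 56.9 and 58.3 CPM in the 3 Ctrl_NC libraries, to 35.2, 32.4 and 33.1 in CRLM1_NC and to 15.3, 15.8 and 13.6 in Antisense_NC. The 23 SNORA genes summed to 50.4, 55.5 and 55.1 CPM in Ctrl_NC, to 48.1, 50 and 48.5 in CRLM1_NC and to 37.8, 41.2 and 37.8 in Antisense_NC. In neither class did the 3 groups overlap, although the highest SNORA sum in CRLM1_NC came close to the lowest in Ctrl_NC. Without the genes of HSPA8 and TAF1D, the SNORD sum was 33.7, 35.1 and 35.4 CPM in Ctrl_NC, 27, 24.5 and 24.3 in CRLM1_NC and 13.2, 13.8 and 12.2 in Antisense_NC. The SNORA sum was then 27.9, 30.5 and 29.4 CPM in Ctrl_NC, 21.8, 22.6 and 22 in CRLM1_NC and 11.7, 12.4 and 11.8 in Antisense_NC, so that the 3 groups lay clear of each other in both classes. With the hnRNPK construct the SNORD sum was 74.4, 68 and 34 in Ctrl, 46.7, 51.4 and 41.9 in CRLM1 and 10.2, 7.09 and 11.4 in Antisense. The SNORA sum was 71.2, 58.5 and 44.2 in Ctrl, 62.2, 58.3 and 48.7 in CRLM1 and 31.3, 21 and 46.4 in Antisense cells with the construct. The Antisense libraries held the lowest SNORD sums, and Ctrl_hnRNPK replicate 3 lay far below its own replicates. In bulk RNA, fewer cells that express a gene and less RNA per cell cannot be told apart.

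**Figure D1:**
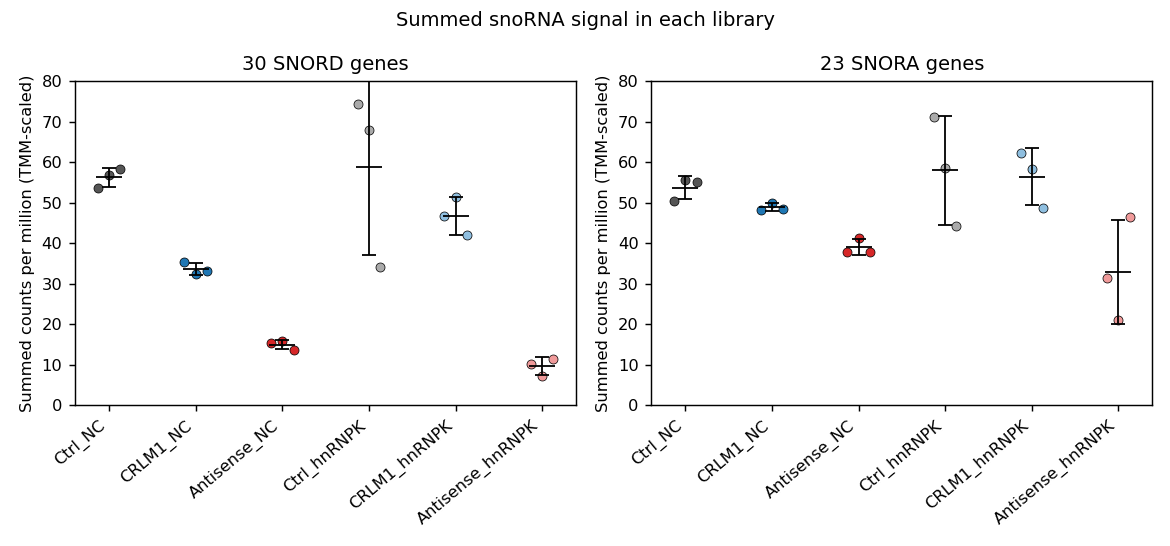
Summed CPM (y axis, counts scaled by TMM library size) of the 30 SNORD genes (left) and the 23 SNORA genes (right) in each library, by group on the x axis; points are libraries, and the bar and whiskers are the mean ± SD of 3. The SNORD sums of the 3 NC groups do not overlap, with Ctrl_NC highest and Antisense_NC lowest.

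The sense and antisense constructs were each compared with the empty vector, to ask how the stable backgrounds differed without the hnRNPK construct. The 3 comparisons among Ctrl_NC, CRLM1_NC and Antisense_NC share libraries, so their values are given side by side. Each gene was tested by the quasi-likelihood test of edgeR, and p-values were adjusted by Benjamini-Hochberg across the whole table. A gene was called where the adjusted p was at most 0.05 and the fold change at least 2 or at most 0.5, and all adjusted p-values given here come from this test.

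In Antisense_NC most snoRNAs were lower than in Ctrl_NC. Of the 54, 53 passed the filter on low counts, 36 were called lower and 0 higher, against 6.94% of all 14389 genes tested that were called lower. Of the 17 others, 16 gave log2 fold changes between -0.99 and 0.13 and SNORA18 gave 0.43. The median log2 fold change was -1.32 over the snoRNAs and -0.00 over all genes tested. In the SNORD class 22 of 29 were called, with a median of -1.53, and in the SNORA class 14 of 23, with a median of -1.16. No test of the difference between the classes was made. Of the 53, 25 averaged 10 counts or more in Ctrl_NC alone, and without the filter 34 of all 54 were called lower, against 4.54% of 25673 genes. SCARNA12, a guide RNA of the Cajal body, measured 0.386, 1.08 and 1.38 CPM in Ctrl_NC and 0.646, 0.507 and 1.18 in Antisense_NC, which overlapped. SNORD45C alone was not tested here, with 0.275, 0.32 and 0.535 CPM in Ctrl_NC.

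The largest differences were those of the U14 genes of HSPA8. SNORD14E had 143, 218 and 214 counts in the Ctrl_NC libraries and 2, 4 and 0 in the Antisense_NC libraries, or 7.88, 8.72 and 9.54 CPM against 0.0862, 0.169 and 0 (log2 fold change -6.56, SE 0.33, adjusted p = 1.6e-19). The count of 0 allows a level of up to 0.153 CPM. SNORD14D had 99, 137 and 139 counts against 1, 3 and 1 (log2 fold change -6.19, SE 0.37, adjusted p = 2.5e-17). SNORD14C had 91, 157 and 130 counts against 1, 3 and 1 (log2 fold change -6.19, SE 0.37, adjusted p = 3.1e-17). None of the 3 overlapped between the groups, and all 3 were at or near 0 in Antisense_NC. Pooled over the libraries, Ctrl_NC exceeded Antisense_NC 76-fold for SNORD14D (95% exact interval 32.3 to 235) and 76.6-fold for SNORD14C (32.5 to 237), intervals that cover counting error only. HSPA8 itself measured 1912, 2040.0 and 1944 CPM in Ctrl_NC and 650.5, 678 and 629 in Antisense_NC (log2 fold change -1.64, adjusted p = 4.9e-32), a smaller difference than that of its snoRNAs. SNORD14B, the U14 gene of RPS13, measured 1.1, 0.84 and 0.758 CPM in Ctrl_NC and 0.603, 0.38 and 0.256 in Antisense_NC (log2 fold change -1.13, SE 0.43, adjusted p = 0.021).

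**Figure D2:**
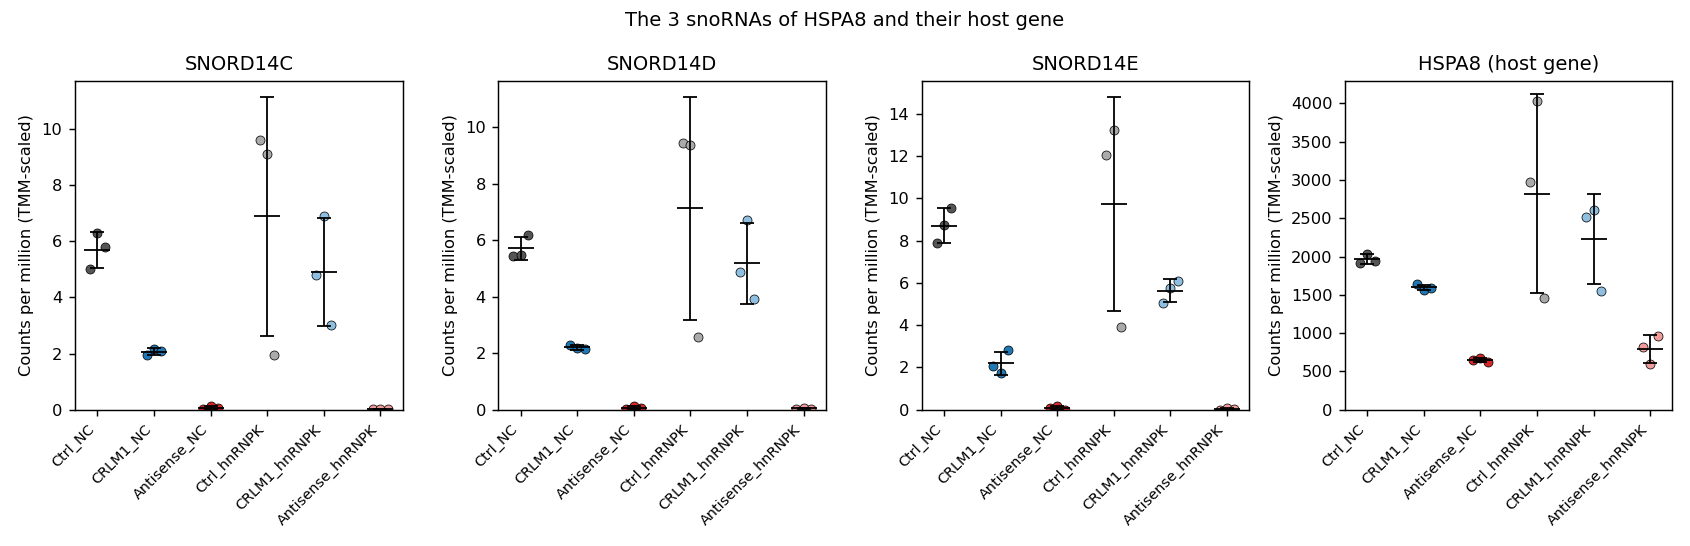
CPM scaled by TMM (y axis) of SNORD14C, SNORD14D, SNORD14E and their host gene HSPA8 in each library, by group on the x axis; points are libraries, and the bar and whiskers are the mean ± SD of 3. The 3 snoRNAs are at or near 0 in all 6 Antisense libraries, while HSPA8 measures 603 to 969 CPM in those libraries.

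Among the other snoRNAs that act in cutting precursor rRNA, SNORA73B (U17, in SNHG3) measured 1.6, 1.72 and 2.05 in Ctrl_NC and 0.431, 0.295 and 0.205 in Antisense_NC, in CPM (log2 fold change -2.54, SE 0.39, adjusted p = 5.2e-07). Both SNORD22 genes of SNHG1 were called lower, at -1.77 (SE 0.28, adjusted p = 9.3e-07) for ENSG00000278527.1 and -1.12 (SE 0.28, adjusted p = 6.1e-04) for ENSG00000277194.1. They were 64.4% identical to each other. Their host SNHG1 changed less, with a log2 fold change of -0.25.

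Several guides of rRNA methylation in ribosomal protein genes were also called lower. SNORD46 had 31, 33 and 39 counts in Ctrl_NC and 3, 1 and 0 in Antisense_NC (log2 fold change -4.64, SE 0.57, adjusted p = 4.5e-09). SNORD54 (RPS20) measured 1.93, 1.36 and 1.74 CPM in Ctrl_NC and 0.172, 0.253 and 0.102 in Antisense_NC (log2 fold change -3.22, SE 0.44, adjusted p = 6.0e-08). SNORD32A and SNORD35A, the RPL13A guides known from lipotoxic stress, gave -2.29 and -2.14, beside -0.54 for RPL13A. Of the 22 snoRNAs in ribosomal protein genes, 17 were called lower, with a median of -1.44. Among those not called, SNORD73A (RPS3A), SNORA10 (RPS2), SNORA6 (RPSA) and SNORD58A (RPL17) gave -0.63, -0.35, -0.48 and -0.84.

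Some hosts were lower along with their snoRNAs. RPS12 was called lower, at -1.07, beside -2.11 (SE 0.49, adjusted p = 3.0e-04) for its C/D guide SNORD100 and -1.10 (SE 0.31, adjusted p = 0.0022) for its H/ACA guide SNORA33. SNHG25, a noncoding host, gave -1.35, beside -1.53 (SE 0.45, adjusted p = 0.0031) for SNORD104. With HSPA8 these were the 3 hosts called. The H/ACA guides of the noncoding host SNHG12 were near the threshold: SNORA44 and SNORA16A were called, at -1.22 (SE 0.49, adjusted p = 0.028) and -1.06 (SE 0.47, adjusted p = 0.046), although their libraries overlapped between the groups, and SNORA61 was not, at -0.65. SNORA44 and SNORA16A were the only called snoRNAs that overlapped between Ctrl_NC and Antisense_NC.

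Of the H/ACA guides, SNORA48 in EIF4A1 had 22, 26 and 26 counts in Ctrl_NC and 2, 1 and 1 in Antisense_NC (log2 fold change -4.16, SE 0.58, adjusted p = 8.3e-08). Its locus lies within 3 annotated genes on the same strand, as does SNORD10, so the host assignment is uncertain for both. All 4 snoRNAs of EIF4A2 were called lower, at -1.68 and -2.58 for the SNORA63 genes ENSG00000200320.1 and ENSG00000200418.1, -1.38 for SNORA4 and -2.38 for SNORD2, while EIF4A2 gave -0.17. The SNORA63 genes were 71.9% identical. SNORA70 measured 6.94, 6.76 and 5.57 CPM in Ctrl_NC and 2.15, 2.83 and 2.3 in Antisense_NC (log2 fold change -1.45, SE 0.18, adjusted p = 1.1e-08). Thus the lower levels were found in both classes and in hosts of several kinds.

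Of the 17 snoRNAs tested and not called, 6 lay in TAF1D and 11 in other hosts. Among the latter was SNORD96A (RACK1), at 0.826, 0.32 and 0.535 CPM in Ctrl_NC and 0.603, 0.633 and 0.461 in Antisense_NC (log2 fold change 0.02, SE 0.45). In TAF1D, SNORA8 measured 8.37, 11.2 and 10.1 CPM in Ctrl_NC and 11, 12.2 and 10.4 in Antisense_NC (log2 fold change 0.12, SE 0.12). SNORA18 measured 6.67, 5.32 and 7.67 CPM in Ctrl_NC and 8.7, 9.79 and 8.8 in Antisense_NC (log2 fold change 0.43, SE 0.14, adjusted p = 0.0079), past the adjusted p threshold but not past a fold of 2. SNORA40, SNORD5, SNORA1 and SNORA32 gave 0.08, 0.13, -0.25 and -0.22, with standard errors of 0.20, 0.29, 0.41 and 0.29. The seventh, SNORA25, was called lower, at 2.2, 2.32 and 2.36 CPM in Ctrl_NC and 1.12, 0.802 and 1.28 in Antisense_NC (log2 fold change -1.16, SE 0.28, adjusted p = 5.0e-04), so the set did not move as a unit. TAF1D measured 63, 63.4 and 66.4 CPM in Ctrl_NC and 78.4, 82.6 and 83.8 in Antisense_NC (log2 fold change 0.29). Without the 6 SNORA genes of TAF1D, 13 of 17 SNORA genes were called, with a median of -1.38, and without the 3 HSPA8 genes and SNORD5 19 of 25 SNORD genes were, with a median of -1.46.

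**Figure D3:**
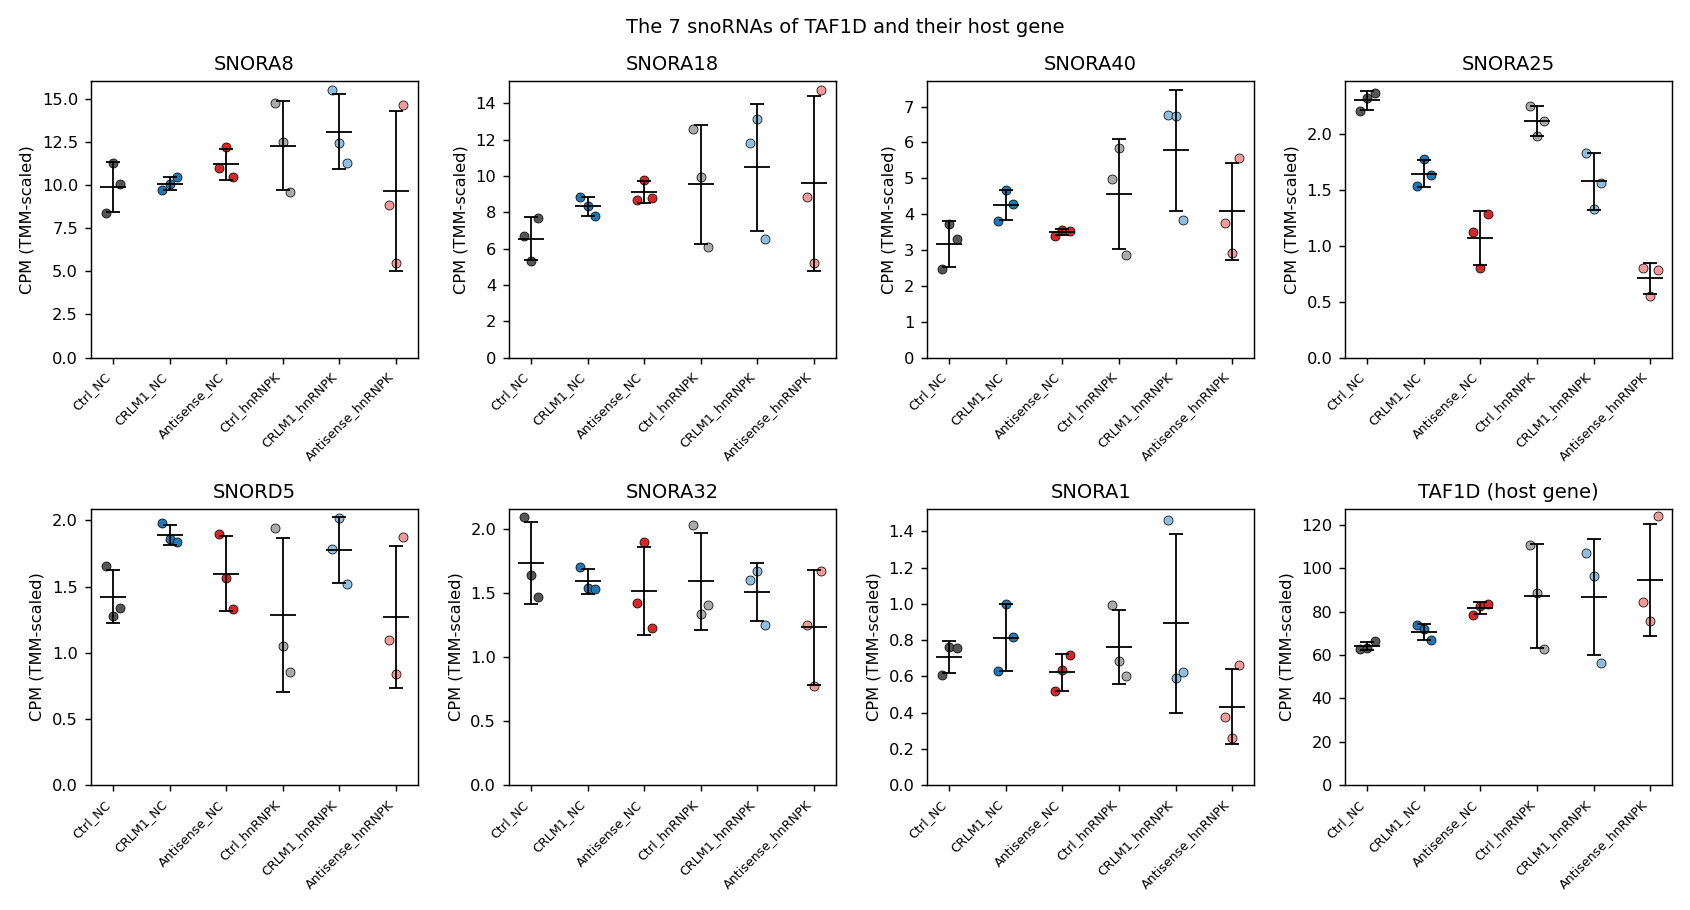
CPM scaled by TMM (y axis) of the 7 snoRNAs of TAF1D and of TAF1D itself in each library, by group on the x axis; points are libraries, and the bar and whiskers are the mean ± SD of 3. SNORA8 lies between 8.37 and 12.2 CPM in all 9 NC libraries, and SNORA25 is lower in Antisense_NC than in Ctrl_NC.

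Most host genes differed by less than their snoRNAs. For 48 of 53 snoRNAs the log2 fold change lay below that of the host, and 30 snoRNAs were called lower while their host was not called. Over all 53, the median of snoRNA minus host was -0.86 on the log2 scale. The median over the 32 hosts was -0.51, with 3 called lower. The difference between a snoRNA and its host was not tested. The 8 snoRNAs that lie in introns alone, SNORD14E among them, were all called lower. Among other short or intronic RNAs at the same count limit, 38 of 78 sense intronic genes tested were called lower and 4 higher (median -0.98), 3 of 6 miscellaneous RNAs were called lower (median -1.01), and the only snRNA gave -3.08. Of 53 genes of other types no longer than 270 bases, the length of the longest snoRNA, 13 were called lower and 7 higher (median -0.32). Sense intronic genes took 0.0445 to 0.0456% of the counts in Ctrl_NC and 0.0298 to 0.0356% in Antisense_NC, and counts assigned to genes made up 75.6 to 76.5% and 79.5 to 81.3% of the read total that the FPKM values imply. Genes of the mitochondrial chromosome took 4.06 to 4.25% of the counts in Ctrl_NC, 4.95 to 5.12% in CRLM1_NC and 6.64 to 7.17% in Antisense_NC, without overlap. The part of these shares in the snoRNA result was not tested.

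**Figure D4:**
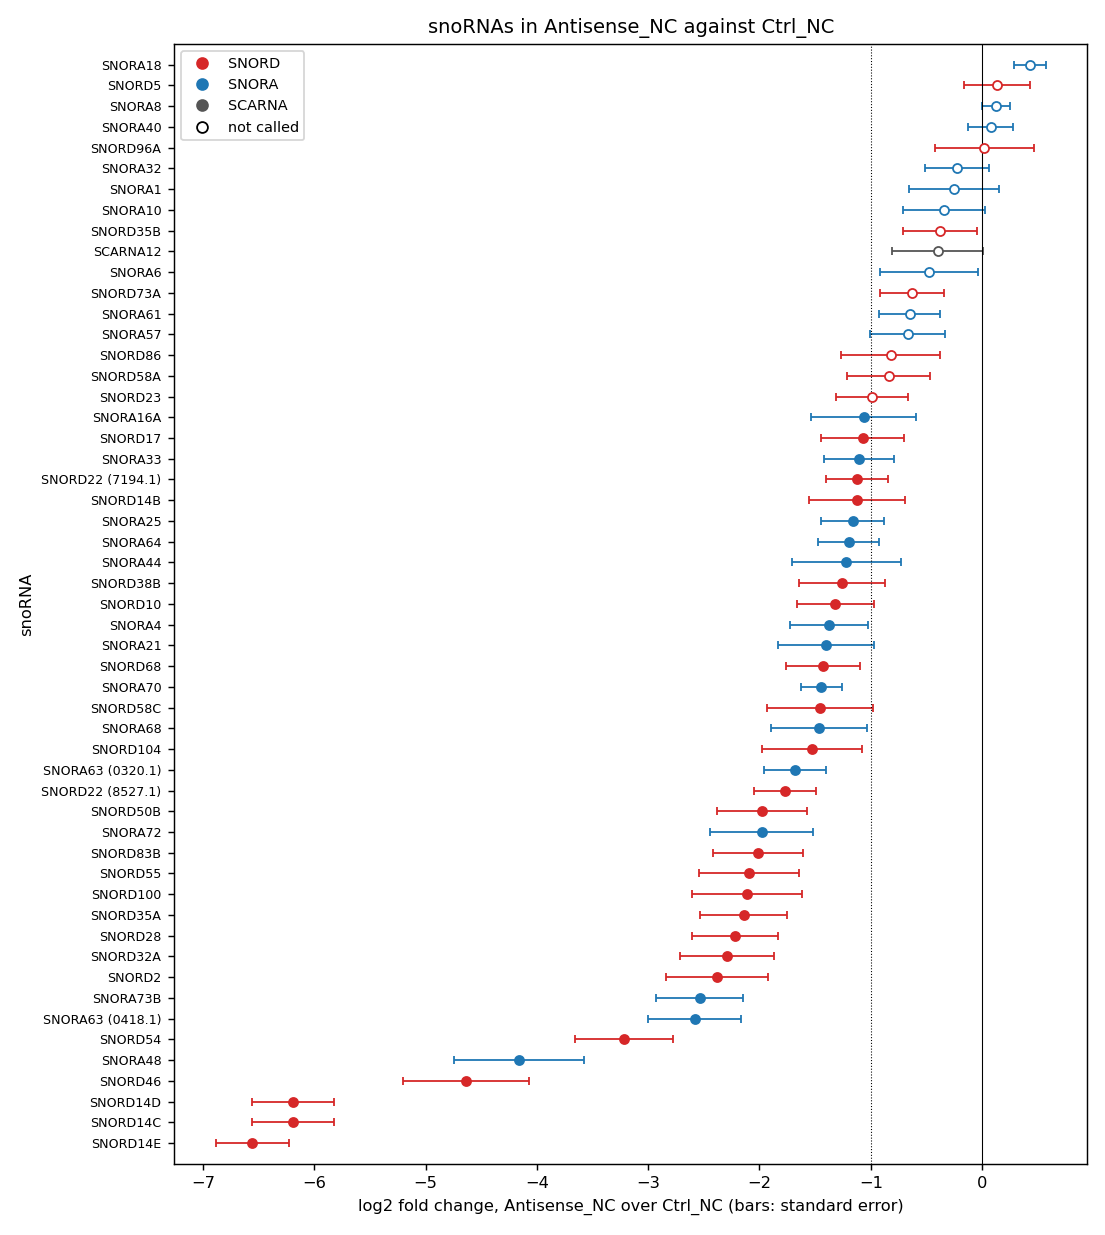
Log2 fold change of each of the 53 snoRNAs tested in Antisense_NC over Ctrl_NC (x axis, circles with SE bars, filled where called), with a row for each snoRNA on the y axis. The SNORD14 genes of HSPA8 lie farthest to the left, and the TAF1D genes other than SNORA25 lie near 0.

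In CRLM1_NC fewer snoRNAs differed from Ctrl_NC. Of 53 tested, 10 were called lower and 0 higher, against 0.809% of all 14459 genes tested that were called lower, and the median was -0.41 over the snoRNAs and 0.01 over all genes. The 10 were 7 SNORD and 3 SNORA genes. Of the 53, 3 averaged 10 counts or more in Ctrl_NC alone, so the filter favoured lower values for them. SNORA72, at a mean of 21.7 counts in Ctrl_NC and 8.67 in CRLM1_NC, was 1 of these and was called. SNORD14E measured 7.88, 8.72 and 9.54 CPM in Ctrl_NC and 2.07, 1.72 and 2.8 in CRLM1_NC (log2 fold change -2.01, SE 0.19, adjusted p = 1.8e-11). SNORD14C and SNORD14D gave -1.48 (SE 0.20, adjusted p = 1.6e-07) and -1.39 (SE 0.20, adjusted p = 4.0e-07). All 3 U14 genes of HSPA8 lay without overlap between the higher Ctrl_NC and the lower Antisense_NC levels, while HSPA8 gave -0.31.

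The other called snoRNAs had fewer counts. SNORD83B (RPL3) gave -1.34 (SE 0.39, adjusted p = 0.0062), SNORA73B -1.29 (SE 0.35, adjusted p = 0.0031) and SNORD54 -1.28 (SE 0.36, adjusted p = 0.0047). SNORA72, SNORD46, SNORA48 and SNORD32A gave -1.29, -1.14, -1.07 and -1.02, and only SNORD32A overlapped between the groups. Of 11 alternative fits, SNORA48, SNORA72 and SNORD46 were no longer called in 8, 6 and 3. SNORD83B, SNORA73B and SNORD54 were no longer called in 2, 1 and 1. None of the TAF1D genes was called, with log2 fold changes from -0.50 to 0.40. The count rested in part on Ctrl_NC replicate 3: without it 5 were called, the 3 HSPA8 genes with SNORA73B and SNORD54. In a single fit of all 6 groups, which shares 1 estimate of spread with the more variable hnRNPK groups, only SNORD14E was called (adjusted p = 0.019).

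Between the sense and the antisense background, 49 snoRNAs were tested, of which 23 were called higher in CRLM1_NC than in Antisense_NC and 0 lower, against 4.01% of all 14364 genes that were called higher. These were 17 of 28 SNORD and 6 of 20 SNORA genes, with medians of 1.10 and 0.77, beside -0.00 over all genes. SNORD14D, SNORD14C and SNORD14E led with 4.81 (SE 0.49, adjusted p = 1.1e-10), 4.72 (SE 0.50, adjusted p = 2.8e-10) and 4.56 (SE 0.51, adjusted p = 9.6e-10), and HSPA8 gave 1.33. SNORD46 measured 0.584, 0.68 and 0.918 CPM in CRLM1_NC and 0.129, 0.0422 and 0 in Antisense_NC (log2 fold change 3.51, SE 0.68, adjusted p = 3.8e-05). SNORD2 and SNORD54 gave 2.35 (SE 0.45, adjusted p = 2.5e-05) and 1.94 (SE 0.54, adjusted p = 0.0025). All 23 were without overlap between the groups, and none of the 7 TAF1D genes was among them. The share of all called genes without overlap is not given here, so the lack of overlap is a description. Of the 49, 21 averaged 10 counts or more in CRLM1_NC alone, and without the filter 21 of all 54 were called higher, against 2.64% of 25676 genes. Without Antisense_NC replicate 3, 16 snoRNAs were called, 11 of them SNORD, and in the single fit of all 6 groups 15 were, 10 of them SNORD.

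The hnRNPK construct was compared with its negative control within each background. In Ctrl cells 0 of 54 snoRNAs were called with all libraries, against 0% of all 14607 genes. In edgeR 2 snoRNAs had an unadjusted p below 0.05, and DESeq2 also called 0. Of 5783 genes of other types with GC in the middle range of the snoRNAs (41.2% to 52.3%), 698 had such a p. Without Ctrl_hnRNPK replicate 3, 1 of 54 was called, against 6.88% of all 15004 genes. It was SNORD45C, in RABGGTB, with 0.275, 0.32 and 0.535 CPM in Ctrl_NC and 0.95, 0.808 and 0.252 in the Ctrl_hnRNPK libraries, the last being the one left out. Its log2 fold change without that library was 1.22 (SE 0.49, adjusted p = 0.039). With all libraries, SNORD45C averaged 8.33 counts in Ctrl_NC and 15.7 in Ctrl_hnRNPK, the only snoRNA to reach 10 in Ctrl_hnRNPK alone. The filter on low counts therefore favoured a higher value for it. SNORD14E measured 12.1, 13.2 and 3.93 CPM in Ctrl_hnRNPK, so that replicate 3 lay below and the others above all Ctrl_NC libraries. Without replicate 3, SNORD14D, SNORD14C and SNORD14E gave 0.74, 0.73 and 0.56 (adjusted p = 5.3e-04, 8.3e-04 and 0.0023). None of these passed a fold of 2. HSPA8 measured 1912, 2040 and 1944 CPM in Ctrl_NC and 2979, 4032 and 1458 in Ctrl_hnRNPK.

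In CRLM1 cells 0 of 52 snoRNAs were called with all libraries, against 0% of all 14394 genes. In edgeR 5 had an unadjusted p below 0.05, and DESeq2 called 0. Of 5719 genes of other types in the same GC range, 468 had such a p. Without CRLM1_hnRNPK replicate 3, 6 of 53 were called, all SNORD, against 5.30% of all 14685 genes. The U14 genes were higher with the construct, at 1.54 (SE 0.23, adjusted p = 1.4e-06) for SNORD14C, 1.44 (SE 0.23, adjusted p = 2.8e-06) for SNORD14D and 1.35 (SE 0.24, adjusted p = 1.4e-05) for SNORD14E on the log2 scale. SNORD14E measured 2.07, 1.72 and 2.8 CPM in CRLM1_NC and 5.03, 5.75 and 6.11 in CRLM1_hnRNPK, where replicate 3 lay with the others. For the other U14 genes replicate 3 was the lowest in CRLM1_hnRNPK. SNORD14C measured 4.8, 6.88 and 3.03 CPM there and SNORD14D 4.89, 6.73 and 3.93. The highest CRLM1_NC values were 2.18 for SNORD14C and 2.29 for SNORD14D. HSPA8, the host of all 3, measured 1638, 1567 and 1589 CPM in CRLM1_NC and 2518, 2608 and 1547 in CRLM1_hnRNPK. SNORD45C and SNORD100 were also higher, at 1.18 (SE 0.50, adjusted p = 0.045) and 1.01 (SE 0.43, adjusted p = 0.047), and SNORD104, in SNHG25, was lower at -1.55 (SE 0.58, adjusted p = 0.024). SNORD104 had 18, 13 and 20 counts in CRLM1_NC and 5, 6 and 26 in CRLM1_hnRNPK, so the library left out was the highest of the 6, and with it SNORD104 gave -0.47 (SE 0.60, adjusted p = 0.75). SNORD45C had 11, 8 and 7 counts against 22, 16 and 10, and SNORD100 had 13, 13 and 11 against 26, 22 and 20. SNORD45C averaged 8.67 counts in CRLM1_NC and 16 in CRLM1_hnRNPK, so the filter favoured a higher value for it here too.

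In Antisense cells only 28 of the 54 snoRNAs passed the filter on low counts. Of these, 6 averaged 10 counts or more in Antisense_NC alone, so the filter favoured lower values. They were SNORD68, SNORD58A, SNORD35B, SNORA57, SNORA10 and SNORD10, and all 6 were among those called lower. Of the 28, 9 were called lower with the construct and 0 higher, against 6.10% of all 14501 genes that were called lower. Without the filter all 54 were tested, and 9 were called lower and 0 higher, against 3.56% of 26425 genes. SNORD68, a methylation guide in RPL13, measured 0.646, 0.802 and 0.614 CPM in Antisense_NC and 0.151, 0.0324 and 0.195 in Antisense_hnRNPK (log2 fold change -2.46, SE 0.53, adjusted p = 9.8e-04). SNORD58A (RPL17) measured 0.517, 0.802 and 0.614 CPM in Antisense_NC and 0.189, 0.0648 and 0.273 in Antisense_hnRNPK (log2 fold change -1.90, SE 0.51, adjusted p = 0.0046), while RPL17 gave 0.44. Both snoRNAs were lower in every hnRNPK library than in any NC library. RPL17 measured a mean of 21.6 CPM in Antisense_NC, the lowest of the 16 ribosomal protein hosts, with RPS3A next at 174. SNORD58A is also 1 of the snoRNAs with a gene on the opposite strand.

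SNORA10 and SNORA64, the pseudouridylation guides of RPS2, gave -1.55 (SE 0.46, adjusted p = 0.0082) and -1.09 (SE 0.39, adjusted p = 0.024). SNORD35B, SNORA57, SNORD10, SNORA70 and SNORD23 gave -1.49, -1.44, -1.18, -1.11 and -1.06. The 9 were 5 of 11 SNORD and 4 of 16 SNORA genes tested, and 6 of the 9 tested snoRNAs in ribosomal protein genes were among them. All 9 called were without overlap between the groups, again without a share over all called genes. Without Antisense_NC replicate 2, 6 snoRNAs were called, 2 of them SNORA. The TAF1D genes gave -0.59 to 0.21 and none was called, with SNORA8 at 8.87, 5.48 and 14.6 CPM in Antisense_hnRNPK, below and above its 11, 12.2 and 10.4 in Antisense_NC. SNORD17 (SNX5), the longest SNORD gene, had the highest value at 0.92 (SE 0.36, adjusted p = 0.039) and was not called; without Antisense_hnRNPK replicate 3 it was called higher at 1.03 (SE 0.39, adjusted p = 0.031). SNORD14C, SNORD14D and SNORD14E were not tested, with 3, 4 and 3 counts in all over the Antisense_hnRNPK libraries and 5, 5 and 6 over the Antisense_NC libraries.

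**Figure D5:**
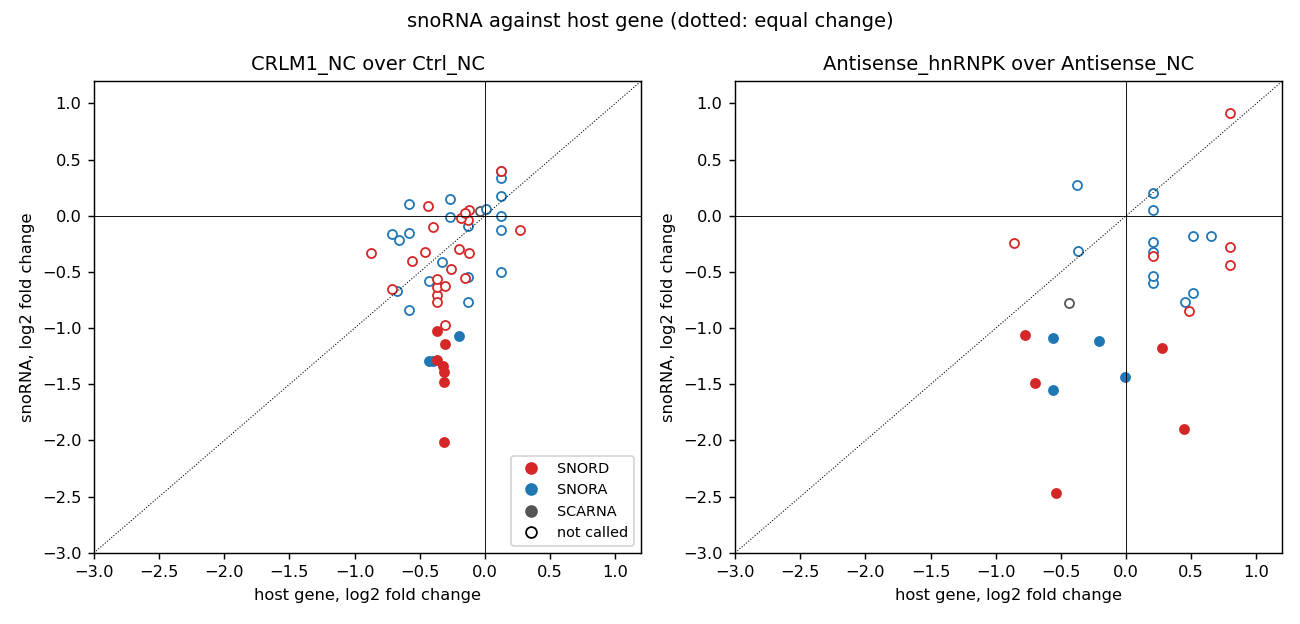
Log2 fold change of each tested snoRNA (y axis) against that of its host gene (x axis) for CRLM1_NC over Ctrl_NC (left) and Antisense_hnRNPK over Antisense_NC (right), filled where the snoRNA was called; the dotted line marks equal change. All 10 called snoRNAs on the left and all 9 on the right lie below the line, but these were selected by their own fold change and none of their hosts was called. Of all snoRNAs tested, 29 of 53 on the left and 23 of 28 on the right lie below it.

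The hnRNPK effect was also compared between backgrounds by an interaction term. For CRLM1 minus Ctrl, 0 of 54 snoRNAs were called in edgeR, against 0% of all 15188 genes, with 1 at an unadjusted p below 0.05 and 0 in DESeq2. For Antisense minus Ctrl, 0 of 54 were called, against 0% of all 15346 genes, with 7 at an unadjusted p below 0.05 and 0 in DESeq2. The share of all genes at such an unadjusted p is not given here for either term, so the 1 and the 7 are descriptions. Without Ctrl_hnRNPK replicate 3, SNORD68 and SNORD38B were called in the latter, with log2 differences of -2.24 (adjusted p = 0.031) and -2.46 (adjusted p = 0.029), against 1.00% of all 15743 genes called in that fit. Both rest on few counts. SNORD38B had 12, 12 and 8 in Antisense_NC and 2, 2 and 3 in Antisense_hnRNPK, none above the floor of 3 counts. SNORD68 had 15, 19 and 12 against 4, 1 and 5.

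GC content moved with the hnRNPK comparisons. Across all genes, Spearman's rho between log2 fold change and exon GC was -0.72 in Ctrl, -0.64 in CRLM1 and -0.72 in Antisense cells with all libraries, against -0.31 for Antisense_NC and -0.17 for CRLM1_NC over Ctrl_NC. Across the snoRNAs tested it was -0.40 (54), -0.22 (52) and -0.28 (28) for the hnRNPK comparisons, and -0.081 (53) and -0.12 (53) for the other 2. Genes of one fit share libraries, so these are descriptions. Of 5818 genes of other types with GC in the middle range of the snoRNAs (41.2% to 52.3%), 94 were called lower and 440 higher in Antisense_hnRNPK, with a median of 0.24. The part of GC content in the snoRNA values was not tested.

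The mRNAs of the snoRNA particle's proteins moved in both directions in Antisense_NC against Ctrl_NC. Of the box C/D core, the methyltransferase FBL and SNU13 (listed as NHP2L1) fell by small amounts, at -0.31 (SE 0.03, adjusted p = 6.2e-10) and -0.41 (SE 0.04, adjusted p = 1.8e-11), while the scaffold proteins NOP56 and NOP58 rose, at 0.52 (SE 0.05, adjusted p = 4.8e-11) and 1.06 (SE 0.09, adjusted p = 6.9e-13). Of the H/ACA core, the pseudouridine synthase DKC1 rose, at 0.87 (SE 0.07, adjusted p = 1.2e-13), as did GAR1, and NHP2 and NOP10 fell, with NHP2 at -0.78 (SE 0.04, adjusted p = 5.6e-19). Over the 30 core, assembly and processing proteins listed, 19 were higher and 6 lower past the adjusted p threshold, against 34.4% and 32.2% of all genes. Past a fold of 2, 3 were higher, against 7.19% of all genes: TGS1, which trimethylates RNA caps, at 2.03 (SE 0.14, adjusted p = 2.1e-15), the box C/D assembly factor ZNHIT6 at 1.30 (SE 0.13, adjusted p = 5.0e-11), and NOP58.

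Of the 10 proteins of end processing and release, 9 were higher and EXOSC10, an exonuclease of the nuclear exosome, was lower, at -0.45 (SE 0.08, adjusted p = 6.1e-06). In CRLM1_NC against Ctrl_NC, 8 of the 30 were higher and 2 lower past the threshold, against 16.9% and 17.4% of all genes. In Antisense_hnRNPK against Antisense_NC, 14 were higher and 7 lower, against 33.4% and 30.5% of all genes. Past a fold of 2, 7.28% of all genes were called higher and 6.10% lower. Of the 30, the exonuclease XRN1 was called higher at 1.15 (SE 0.09, adjusted p = 2.4e-07) and the Cajal body protein WRAP53 lower at -1.03 (SE 0.12, adjusted p = 5.2e-06). The median log2 fold change over the 30 was 0.10 with the construct in Ctrl cells and 0.19 in CRLM1 cells, where no gene of the whole table was called with all libraries.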

How the data were processed

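The authors sequenced total RNA (KAPA RNA HyperPrep, 151 nt paired ends), aligned the reads to GRCh38 with TopHat2, allowing 4 mismatches, and counted uniquely mapped reads for the gene models of Gencode version 23. The deposited count table holds whole counts per gene, and the deposited FPKM table the authors' values scaled by gene length and by mapped reads. Gene types, names and counts were used as deposited, and coordinates, hosts and sequences came from Gencode version 44 on GRCh38, in which 311 of the 313 snoRNA genes and all 54 members were found. A host was the shortest annotated gene on the same strand that spans the snoRNA, among those listed in the count table.

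Counts were tested in R 4.3.3 with edgeR 4.0.16 (TMM, filterByExpr, robust quasi-likelihood F-test, two-sided) in each pair of groups, and in 2 interaction fits on 4 groups. The SE was taken from the fitted change and its F value. Log2 fold changes are edgeR's. The fits were tested on simulated data. Alternatives were RLE size factors, no filter, DESeq2 1.42.0, a replicate block, a single fit of all 6 groups and leaving out each library. Named snoRNAs were the 10 with the highest mean FPKM, up to 6 highest and 6 lowest called changes per comparison without overlap between the groups, those sharing a host with them, and the genes at the limit; others with 5 or fewer in a count were named after their values were seen. Some host genes and a sequence are not reported here. The members, lists and rules were chosen with earlier results of these data known. Same-numbered replicates did not deviate together (correlations -0.13 to 0.082 across genes), so numbers were not taken to pair libraries. Standard errors, intervals and floors of 3 counts do not cover PCR duplicates, since reads are not independent molecules.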

Additional observations from a re-analysis of the deposited data

How the results depend on the processing

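For Antisense_NC against Ctrl_NC, 31 to 36 snoRNAs were called under every alternative listed in the methods, and 33 to 36 when a library was left out. The other counts moved more. For CRLM1_NC against Ctrl_NC, leaving out a library gave 5 to 9 snoRNAs, with 4 to 7 SNORD and 1 to 2 SNORA genes; the single fit of all 6 groups gave 1, with 1 SNORD and 0 SNORA, and DESeq2 gave 7, with 1 SNORA. For CRLM1_NC against Antisense_NC, leaving out a library gave 16 to 21 (SNORD 11 to 17), the single fit 15 (SNORD 10) and DESeq2 17. For Antisense_hnRNPK against Antisense_NC the range over left-out libraries was 6 to 12, with 2 to 5 SNORA genes. With all libraries 0 snoRNAs were called for the construct in Ctrl and CRLM1 cells, and leaving out a library gave 0 to 1 and 0 to 6. For the interaction of Antisense minus Ctrl, leaving out a library gave 0 to 2, and fitting without the filter on low counts gave 1 (SNORD68). Why these counts moved was not tested, beyond the fewer libraries of the left-out fits and the shared spread of the single fit. For most of these fits the share of all genes called is not given here, so the counts are not set against it.

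With the replicate block, 9, 22, 35 and 9 snoRNAs were called for CRLM1_NC against Ctrl_NC, CRLM1_NC against Antisense_NC, Antisense_NC against Ctrl_NC and Antisense_hnRNPK against Antisense_NC, and 0 for the others. Of 539 alternative values for named called snoRNAs, 482 were still called, 57 were not, and 0 changed sign. Low counts in Antisense cells limit what can be seen: 26 of 54 snoRNAs could not be tested there for the construct.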
